A study of Mus musculus with 9 samples.

Results

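Gata3, Tcf7 and Lef1 encode transcription factors of the T-cell lineage, and the sites of CTCF and of the cohesin subunit Rad21 around them were described in B-cell precursors and thymocytes. For each gene, every called peak that overlapped the mm9 gene body or the 300 kb on either side was taken. These 3 of 22350 protein-coding genes on chromosomes 1 to 19 and X held 376 of the 190262 peaks in the 5 deposited lists. Chromatin immunoprecipitation and sequencing (ChIP-seq) covered CTCF at the IL7-cultured pro-B and the pre-B stage. Rad21 was covered in pre-B cells and at the DN and DP stages of the thymus. All cells came from RAG-deficient C57BL/6 mice, which cannot rearrange their antigen receptor genes. The pro-B cells were RAG1-/- bone marrow cells kept 7 days in IL7. The pre-B cells came from RAG-deficient mice with a rearranged IgM transgene, the DN thymocytes from Rag1-/- mice and the DP thymocytes from Rag1-/- mice with a rearranged TCRb transgene. Bone marrow donors of both sexes were 6 to 14 weeks old and thymus donors 4 to 8 weeks old. There was 1 library per antibody and cell type, so no spread between animals could be measured and no difference between cell types was tested. RNA was not analysed here, so the cell labels could not be set against marker genes.

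Gata3 is a zinc finger factor needed at several steps of T-cell development, from the earliest thymic progenitors to CD4 T cells. Tcf7 encodes TCF1 and Lef1 encodes LEF1, related HMG-box factors that bind the same short DNA word and can recruit β-catenin of the Wnt pathway. Tcf7 is switched on by Notch signals in early thymocytes, whereas Lef1 is used both in thymocytes and in B-cell precursors. CTCF is a zinc finger protein that binds a long, directional motif. Cohesin, the ring complex that contains Rad21, often halts at CTCF to anchor chromatin loops and is also found at active enhancers and promoters without CTCF. Tce1, a T-cell and NK-cell enhancer far downstream of Gata3, and a Notch-responsive enhancer upstream of Tcf7 are both known. Their coordinates are not in the sources used here, so no site was matched to them.

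Distances are in kb from the start of the first-numbered annotated transcript, negative upstream and positive downstream, and are those of a site's midpoint. A promoter site lay within 1 kb of any annotated start. Gata3 (ENSMUSG00000015619.9) lies on the minus strand at chr2:9778705-9811661, spans 33.0 kb and has 6 annotated starts, with the reference start at 9800227. Tcf7 (ENSMUSG00000000782.8) lies on the minus strand at chr11:52065873-52096681, spans 30.8 kb and has 4 starts, with the reference start at 52096073. Lef1 (ENSMUSG00000027985.8) lies on the plus strand at chr3:130813389-130927274, spans 114 kb and has 3 starts, of which the first is the reference. The windows were 633, 631 and 714 kb long. Scores grow with sequencing depth, so each peak was ranked only within its own list, and rank is given as the share of that list that scored lower. The lists hold 71080 (IL7 pro-B CTCF), 42250 (pre-B CTCF), 30488 (pre-B Rad21), 9701 (DN Rad21) and 36743 (DP Rad21) peaks. A site absent from a list was not called there, which is not the same as unbound, most of all in the short DN list.

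The sequences below are the central 300 bases of DP Rad21 peaks that had no pre-B Rad21 peak. They are shown because they include the 3 sites of the windows called in both DN and DP thymocytes and not in pre-B cells, together with a pair of Tcf7 sites rich in factor words. Capitals mark short words of known factors, matched on either strand. They are CTTTGA for TCF1 and LEF1, AGATAA for Gata3 and its relatives, TGTGGT for Runx factors and CCGGAA for Ets factors, called below the TCF/LEF, GATA, Runx and Ets words. The words were chosen after the peak values were seen. Coordinates are mm9.
Tcf7 far upstream site at -31.9 kb, chr11:52127783-52128082, plus strand: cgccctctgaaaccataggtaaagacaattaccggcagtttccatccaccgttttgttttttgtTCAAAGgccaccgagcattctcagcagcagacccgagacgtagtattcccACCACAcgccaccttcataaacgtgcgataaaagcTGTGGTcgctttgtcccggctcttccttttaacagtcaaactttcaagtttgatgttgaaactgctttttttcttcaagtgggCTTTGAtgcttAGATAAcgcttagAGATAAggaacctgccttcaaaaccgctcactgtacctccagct
Tcf7 intron site at +6.7 kb, chr11:52089234-52089533, plus strand: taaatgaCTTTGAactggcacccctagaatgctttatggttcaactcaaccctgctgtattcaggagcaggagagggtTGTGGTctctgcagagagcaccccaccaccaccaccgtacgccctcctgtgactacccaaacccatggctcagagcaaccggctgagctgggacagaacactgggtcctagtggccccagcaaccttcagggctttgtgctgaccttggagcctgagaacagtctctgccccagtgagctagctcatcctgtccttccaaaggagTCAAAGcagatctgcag
Gata3 far downstream site at +284.5 kb, chr2:9515616-9515915, plus strand: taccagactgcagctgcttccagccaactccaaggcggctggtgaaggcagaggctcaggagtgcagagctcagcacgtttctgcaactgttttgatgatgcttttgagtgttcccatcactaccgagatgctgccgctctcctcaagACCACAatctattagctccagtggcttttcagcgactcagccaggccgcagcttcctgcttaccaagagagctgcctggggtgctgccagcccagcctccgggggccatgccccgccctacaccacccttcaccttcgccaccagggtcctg
Gata3 downstream site at +50.8 kb, chr2:9749301-9749600, plus strand: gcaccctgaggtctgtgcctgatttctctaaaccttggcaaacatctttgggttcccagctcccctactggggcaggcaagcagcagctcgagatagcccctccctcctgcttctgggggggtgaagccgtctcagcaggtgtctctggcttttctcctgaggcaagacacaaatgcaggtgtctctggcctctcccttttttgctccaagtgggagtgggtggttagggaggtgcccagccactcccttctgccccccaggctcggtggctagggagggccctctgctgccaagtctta
Lef1 upstream site at -163.2 kb, chr3:130650002-130650301, plus strand: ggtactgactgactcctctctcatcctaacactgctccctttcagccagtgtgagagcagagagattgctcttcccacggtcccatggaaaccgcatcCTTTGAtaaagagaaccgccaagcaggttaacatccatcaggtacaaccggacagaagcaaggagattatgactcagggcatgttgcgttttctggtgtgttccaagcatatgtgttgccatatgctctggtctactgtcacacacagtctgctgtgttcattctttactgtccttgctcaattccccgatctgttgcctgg
The Tcf7 site at -31.9 kb held 6 matches, of which 2 were TCF/LEF, 2 GATA and 2 Runx words. As a description of how common that is, 0.112% of the 16038 DP Rad21 sites without pre-B Rad21 in the genome held 6 or more matches. At least 3 were held by 4.7% and at least 2 by 17.8%. This site was singled out after its sequence was seen. The Tcf7 intron site held 2 TCF/LEF words and 1 Runx word. The Gata3 site at +284.5 kb held 1 Runx word, the Lef1 site at -163.2 kb held 1 TCF/LEF word, and the Gata3 site at +50.8 kb held no match. The printed set was picked partly for its matches. The central 300 bases of other highly ranked DP sites without pre-B Rad21 held none of the words, namely those at +283.1 kb of Gata3, at +320.9 kb of Tcf7, and at -174.3 kb and the promoter of Lef1.

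The 250 bases before a RefSeq start are shown for Gata3 and Lef1, because a DP Rad21 peak overlapped each of them. The same held for the Tcf7 promoter, which carries 1 Ets word and is not printed because it overlaps an exon of other Tcf7 transcripts. The RefSeq table is on GRCm38.p6 and its sequences were placed in mm9 by exact match. Capitals mark the same words as above.
Gata3 promoter, chr2:9800228-9800477, minus strand: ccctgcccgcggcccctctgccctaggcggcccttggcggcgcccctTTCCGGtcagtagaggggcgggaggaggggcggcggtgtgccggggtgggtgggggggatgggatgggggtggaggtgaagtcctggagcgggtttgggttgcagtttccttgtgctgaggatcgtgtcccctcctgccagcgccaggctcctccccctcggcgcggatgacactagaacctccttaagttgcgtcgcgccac
Lef1 promoter, chr3:130812991-130813240, plus strand: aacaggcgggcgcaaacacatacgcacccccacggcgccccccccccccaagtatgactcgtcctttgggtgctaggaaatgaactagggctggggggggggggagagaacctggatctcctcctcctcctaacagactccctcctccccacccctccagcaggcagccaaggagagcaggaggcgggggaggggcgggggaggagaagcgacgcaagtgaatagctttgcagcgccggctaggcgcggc
The Gata3 promoter held 1 Ets word and the Lef1 promoter none of the words. Over all 32851 RefSeq promoters of that length, 12% held the Ets word, 13.8% the TCF/LEF word, 9.99% the GATA word and 14.0% the Runx word. The printed Gata3 bases also lie within an exon of Gm13256, a transcript annotated across the Gata3 start.

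**Figure D1:**
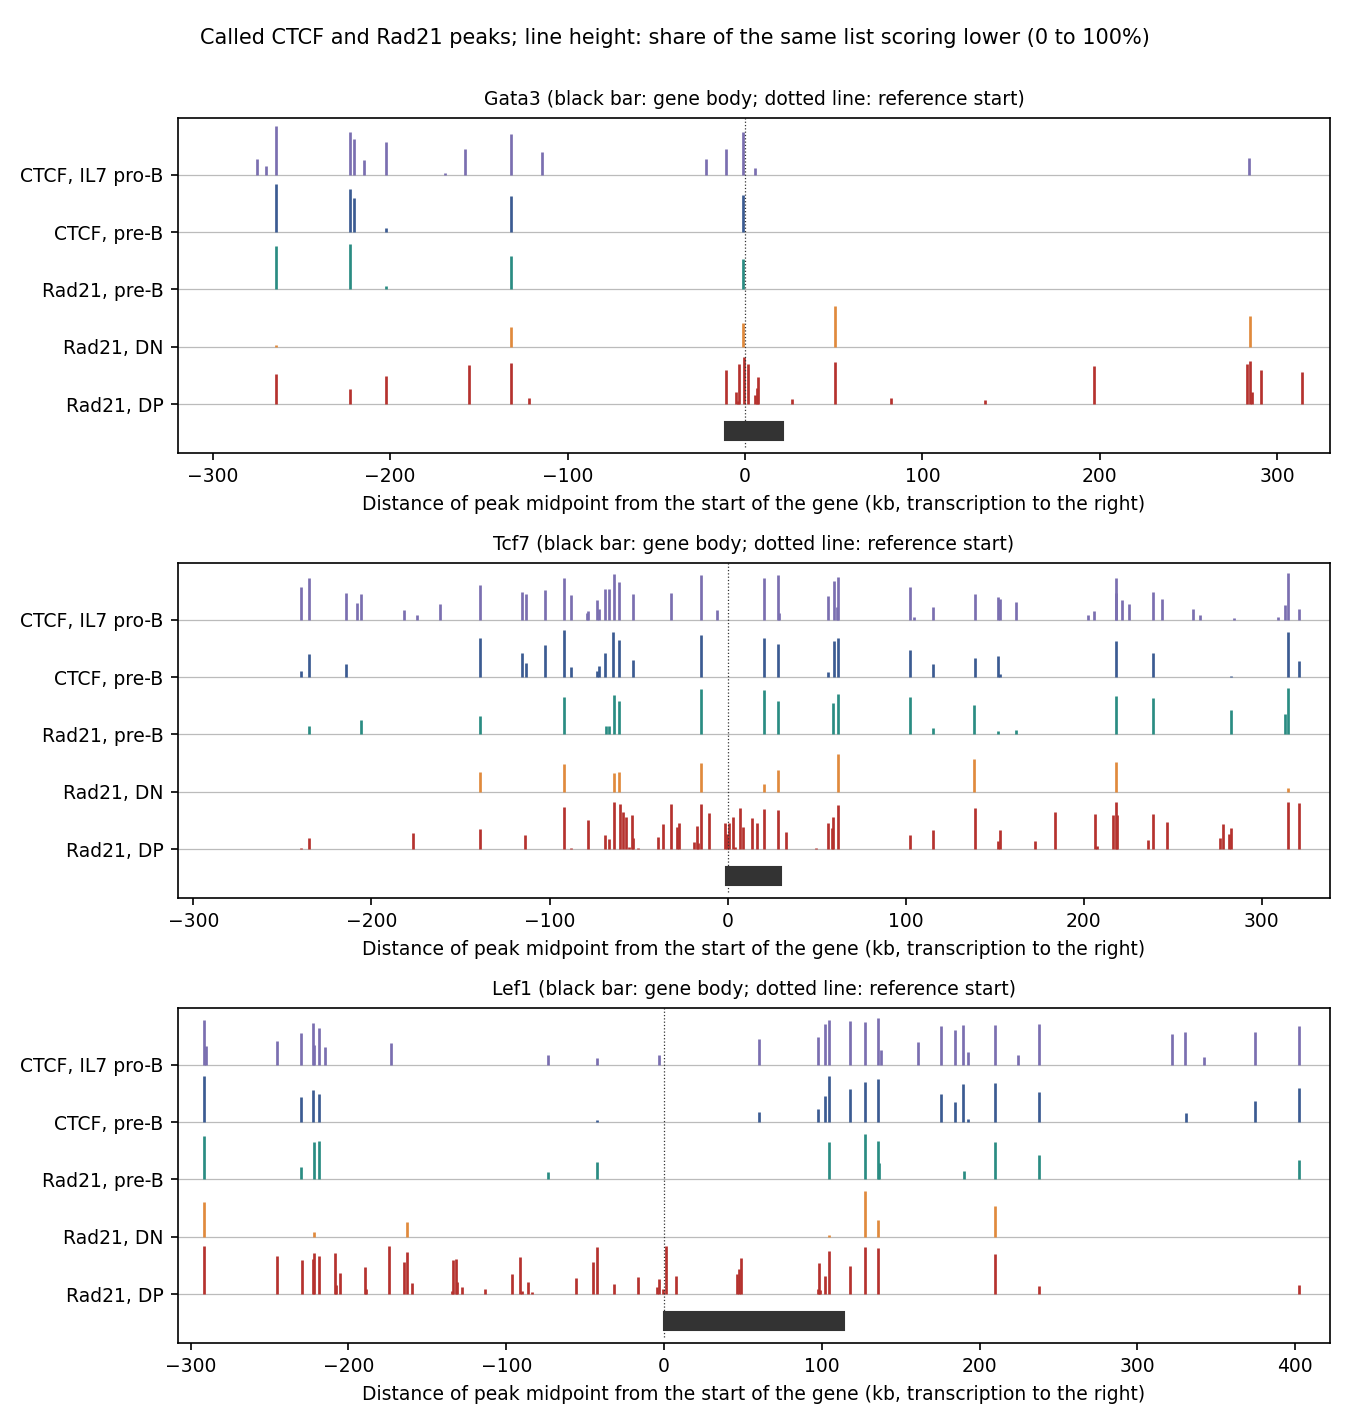
Called peaks in the Gata3, Tcf7 and Lef1 windows by library, against distance of the peak midpoint from the reference start (kb, transcription to the right); each vertical line is a peak and its height is the share of the same list that scored lower (0 to 100%). DP Rad21 peaks fill stretches that hold few B-lineage calls, downstream of Gata3 and upstream of Lef1, and crowd around the Tcf7 start.

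The 3 windows differed in how much CTCF they held, and each held more DP Rad21 peaks than the median gene window. The Gata3 window was sparse in B-lineage calls, with 16 IL7 pro-B CTCF, 6 pre-B CTCF and 5 pre-B Rad21 peaks. For comparison, the medians over windows drawn the same way around all 22350 genes were 30, 18 and 13. The Tcf7 window was dense, with 55, 34 and 23 peaks. The Lef1 window lay near the medians, with 33, 22 and 15. In DN thymocytes the Gata3, Tcf7 and Lef1 windows held 5, 11 and 7 Rad21 peaks against a median of 4. In DP thymocytes they held 27, 67 and 50 Rad21 peaks against a median of 15. The DP count was above that of 77.3% of genes at Gata3, 99.9% at Tcf7 and 98.0% at Lef1. Only 28 gene windows, that of Tcf7 among them, held as many DP peaks as Tcf7 or more. Neighbouring genes share windows, so these positions describe the windows and are not a test. With each Rad21 list limited to its 9701 highest-scoring peaks, the windows held 9, 16 and 15 DP peaks. Those counts were not ranked against other genes.

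The Rad21 peaks of the 3 cell types were merged, where they overlapped by at least 1 bp, into 147 sites. Of these, 104 were called in thymocytes and not in pre-B cells, which is 70.7% (exact Clopper-Pearson 95% interval 62.7 to 78.0) against 34.8% of all 46478 merged sites in the genome. Another 37 were called in both lineages, 25.2% (18.4 to 33.0) against 44.6%. The remaining 6 were called in pre-B cells alone, 4.08% (1.51 to 8.67) against 20.6%. Of these 6, the site at +136.0 kb of Lef1 falls inside a wider site at +135.6 kb once CTCF peaks are merged in as well, as is done for the all-library sites below. These intervals cover counting error only, since each cell type is 1 library. At Gata3, 21 of 26 sites were thymocyte calls without pre-B, 80.8% (60.6 to 93.4), 5 were shared and none was pre-B only, which allows a share of up to 11.5% by the limit of 3 counts and 13.2% by the exact interval. At Tcf7 the counts were 46, 20 and 3 of 69, with 66.7% (54.3 to 77.6) in thymocytes and not pre-B. At Lef1 they were 37, 12 and 3 of 52, with 71.2% (56.9 to 82.9). Lef1, which B-cell precursors also use, thus showed the same order of classes as the T-lineage genes Gata3 and Tcf7.

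These shares depend on how deep each list runs. With each Rad21 list limited to its 9701 highest-scoring peaks, each window held 8 thymocyte sites without pre-B Rad21. Beside them were 2 shared and 1 pre-B site at Gata3, 9 and 2 at Tcf7, and 7 and 0 at Lef1, so shared sites outnumbered thymocyte ones at Tcf7. At that length 36.5% of all sites in the genome were thymocyte calls without pre-B, the median gene window held 2, and 97.2% of genes had fewer than 8.

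**Figure D2:**
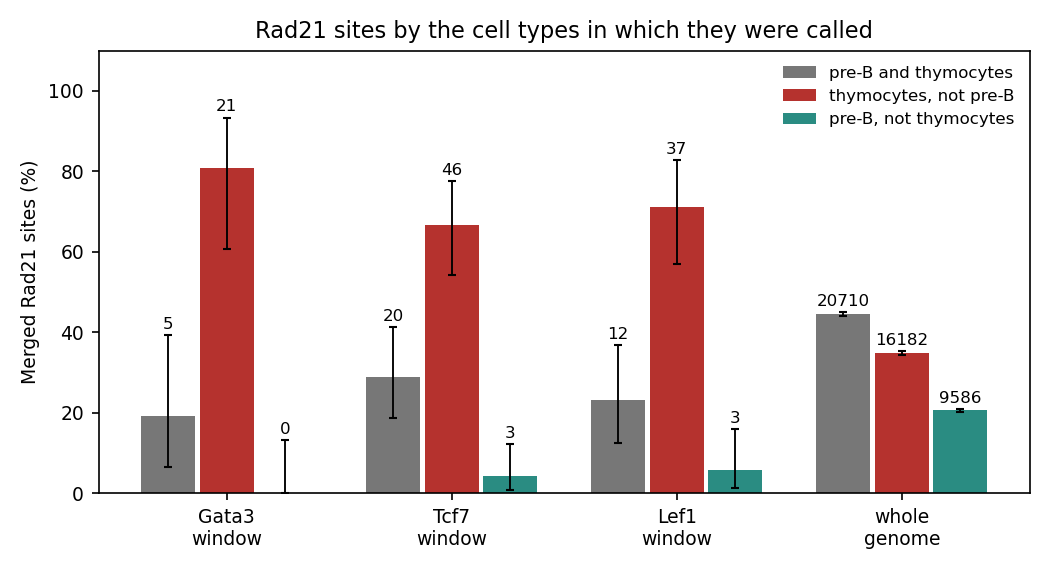
Share of merged Rad21 sites (%) called in pre-B cells and thymocytes (grey), in thymocytes and not pre-B cells (red) and in pre-B cells and not thymocytes (green), for the 3 windows and the whole genome, from 1 library per cell type. Bars carry the number of sites and error bars are exact 95% intervals for counting error; the red bar is the tallest in each of the 3 windows and the grey bar is the tallest in the genome.

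Nearly all of the thymocyte sites without pre-B Rad21 came from DP cells. DP alone called 101 of the 147 sites, 68.7% against 33.6% of sites in the genome. All 23 DN peaks in the windows lay in sites that were also called in DP, as did 94.5% of the DN sites of the genome. Of those, 20 were called in pre-B cells too, 13.6% of sites against 18.7% in the genome. The other 3 were DN and DP calls without pre-B, 2.04% against 0.940%, and they are the sites printed above at +50.8 and +284.5 kb of Gata3 and at -163.2 kb of Lef1. No site was called in DN alone or in DN and pre-B without DP, where the genome had 0.310 and 0.831%.

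As a description over all genes, the median window held 5 sites called in thymocytes and not in pre-B cells. Gata3 with 21 had more than 96.4% of genes, Tcf7 with 46 more than 99.9% and Lef1 with 37 more than 99.7%. As many or more sites were found in 803, 23 and 64 gene windows. Several DP peaks lay end to end, so sites no more than 1 kb apart were also joined, a setting chosen after the peaks were seen. The counts then fell to 14, 25 and 26, above 93.0, 99.6 and 99.7% of genes.

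**Figure D3:**
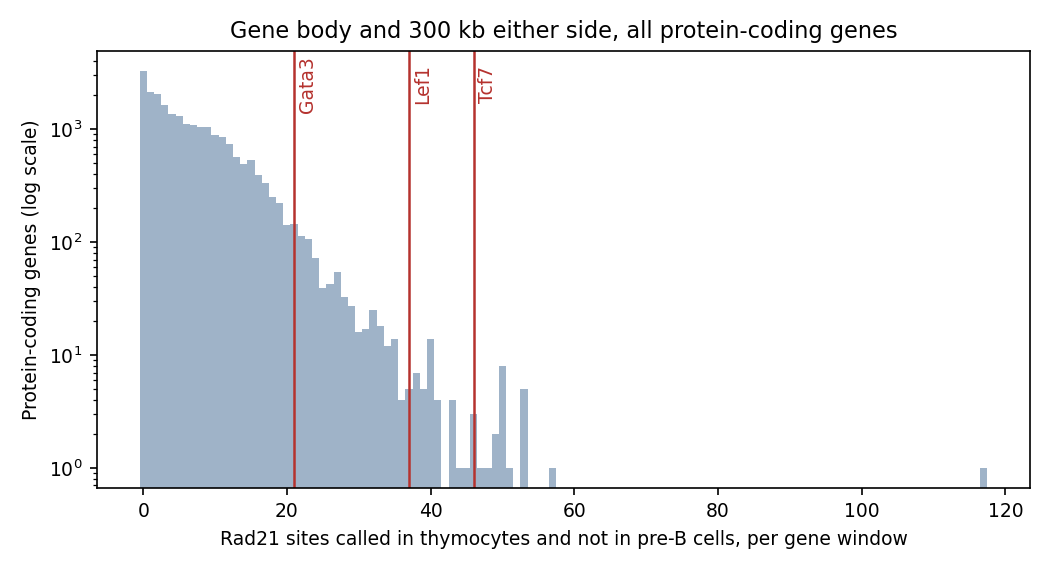
Number of protein-coding genes (log scale) by the number of Rad21 sites called in thymocytes and not in pre-B cells in each gene body and 300 kb either side. Red lines mark Gata3 at 21, Lef1 at 37 and Tcf7 at 46, in the right tail of a distribution with a median of 5 and a highest value of 117.

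As in the genome, sites called in both lineages overlapped B-lineage CTCF far more often than those called in thymocytes and not pre-B cells. Part of this contrast is built in, because shared sites have pre-B Rad21 by definition and both CTCF lists are from B-lineage cells. All 37 shared sites overlapped a CTCF peak of pre-B or IL7 pro-B cells, against 96.0% of shared sites in the genome. Of the 104 thymocyte sites without pre-B Rad21, 17 did, 16.3% (9.82 to 24.9) against 35.9% in the genome. Over all DP Rad21 peaks in the windows, 56 of 144 overlapped B-lineage CTCF, 38.9% (30.9 to 47.4) against 69.2%. The 6 sites called in pre-B cells alone all had CTCF, against 85.4%. All 43 pre-B Rad21 peaks did, against 92.4%, and 21 of 23 DN peaks did, against 98.4%. The study's de novo CTCF motif, with at most 2 mismatches over its 12 bases, was found in 21 of the 37 shared sites (56.8%, genome 54.6%) and in 15 of the 104 (14.4%, genome 17.7%). The lists used here hold no thymocyte CTCF, so whether CTCF was bound at these sites in DN or DP cells is not known from them.

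The shared sites also ranked higher among the DP calls. Their median rank was above 79.3% of the DP list (range 17.4 to 98.7), while the thymocyte sites without pre-B Rad21 had a median of 41.9% (0.536 to 98.7). The same 2 classes had medians of 66.8 and 32.2% in the genome. Median widths were 793 and 598 bp in the windows, and 709 and 522 bp in the genome. Median GC content was 49.1 and 50.3%. A few thymocyte sites without pre-B Rad21 ranked with the strongest DP calls, and they are described gene by gene.

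**Figure D4:**
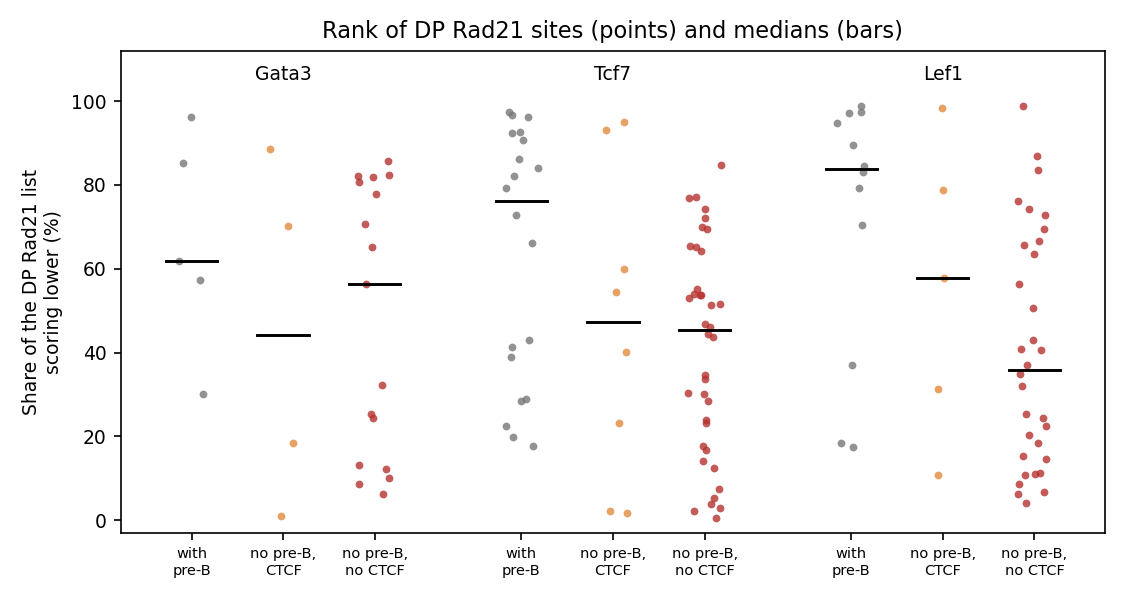
Rank of each DP Rad21 site, as the share of the DP list scoring lower (%), by gene and by whether the site was also called in pre-B cells (grey), was not called there but overlapped B-lineage CTCF (orange), or had neither (red). Bars are medians; the grey points lie highest on the median in each window, and the red Lef1 point at 98.7% is the promoter.

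At Gata3 the shared sites were at the promoter and far upstream. The promoter site, at -0.4 kb, was called in all 5 libraries, and Gata3 was the only member with CTCF at a promoter. Its CTCF peaks ranked above 86.9% of the IL7 pro-B list and 75.6% of the pre-B list, and its Rad21 peaks above 62.0% of the pre-B, 48.9% of the DN and 96.1% of the DP list. The CTCF, pre-B Rad21 and DN Rad21 peaks were centred at -1.2 to -1.1 kb and did not reach the start. The DP peak, chr2:9799510-9801688, was 2179 bp wide and extended across it. The site at -131.8 kb, within Taf3, was likewise called in all 5 libraries, with the DP peak above 85.3% and the DN peak above 41.1% of their lists. The site at -264.3 kb carried the highest CTCF ranks of the window, above 99.3% of the IL7 pro-B and 98.2% of the pre-B list. There the Rad21 peaks ranked above 89.0% (pre-B), 61.9% (DP) and 4.21% (DN).

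Around that promoter the gene body held 8 Rad21 sites called in DP and not in pre-B cells, more than in 99.3% of gene bodies (median 0). A site at +1.8 kb was 1852 bp wide and ranked above 81.8% of the DP list, and an intron site at -3.2 kb ranked above 82.1%. A site at -10.9 kb, beside the most upstream starts and within 9230102O04Rik, had DP Rad21 (70.1%) and IL7 pro-B CTCF (53.9%). The other 5 ranked between 6.34 and 56.3%. Of these 8 sites, 4 kept their DP call at a score of at least 100 and 2 with lists of equal length. For the 8 such sites in each of the other gene bodies, 6 and 1 kept it at Tcf7, and 6 and 2 at Lef1.

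Downstream of Gata3 the B-lineage lists were almost empty. From -0.8 kb to the end of the window at +321.5 kb, a stretch of 322 kb, no pre-B CTCF peak was called. The flank beyond the gene held 1 IL7 pro-B CTCF peak, no pre-B Rad21 peak, 2 DN Rad21 peaks and 10 DP Rad21 peaks. The site at +50.8 kb ranked above 83.2% of the DN list, which made it the strongest DN call of the window, and above 85.8% of the DP list. It had no CTCF call in either B-lineage list. A cluster at +283.1 to +290.8 kb held 4 DP sites. The strongest, at +284.5 kb, ranked above 88.5% of the DP list and 64.0% of the DN list, and it overlapped the flank's only CTCF peak (IL7 pro-B, 35.3%). Its neighbour at +283.1 kb was called in DP only (82.4%). Both lie within Gm13218. Sites at +196.8 kb (77.9%) and +313.8 kb (65.2%) were called in DP only.

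At Tcf7 the start itself had no CTCF and no pre-B or DN Rad21 call. The 4 annotated starts fell within a pair of nearly abutting DP peaks, chr11:52095959-52096685 and chr11:52094216-52095951, which ranked above 30.2 and 53.1% of the DP list. A further DP peak at -1.6 kb ranked above 53.7%. Into the gene the DP calls continued with peaks at +2.9 kb (1958 bp wide, 65.5%), +4.3 kb (3.94%) and +6.7 kb (2672 bp wide, 84.7%), then at +8.6 kb (44.5%), +14.0 kb (64.3%) and +16.4 kb (53.9%). None of these had B-lineage CTCF. The transcripts A630014C17Rik and Gm16953 are annotated across parts of the same stretch. The calls around the start thus covered a broad stretch and were mostly of middling rank. Whether the 8 sites in the gene body are separate elements where they adjoin was not measured.

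All-library CTCF sites lay on either side of this block but did not bound the DP calls. DP calls without pre-B Rad21 or B-lineage CTCF continued upstream of -15.0 kb, for example at -17.3, -36.2 and -58.5 kb. These ranked above 46.7, 51.3 and 76.8% of the DP list. An all-library site at -15.0 kb, the next such site upstream of the Tcf7 start, matched the CTCF motif without mismatch and ranked above 93.0 and 86.4% (CTCF, IL7 pro-B and pre-B) and 93.8, 59.6 and 92.7% (Rad21, pre-B, DN and DP) of its lists. On the other side, inside the gene, an intron site at +20.4 kb and an exon site at +28.5 kb were also called in all 5 libraries. Their pre-B Rad21 peaks ranked above 92.1 and 68.6% of the list, and their DP peaks above 82 and 79.3%. The motif matches at -15.0 and +28.5 kb pointed toward each other.

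The strongest upstream DP site without pre-B Rad21 was the one printed above at -31.9 kb. It ranked above 93.1% of the DP list and 55.3% of the IL7 pro-B CTCF list, and had no pre-B CTCF or DN Rad21 call. Farther upstream, all-library sites stood at -60.4, -64.0, -92.0 (at the Vdac1 promoter) and -139.0 kb, with DP ranks above 92.4, 96.6, 86.1 and 41.4%. Downstream of the gene, all-library sites stood at +62.1, +138.7, +218.1 and +314.7 kb, with DP ranks above 90.6, 84.0, 97.4 and 96.1%. Of the 46 thymocyte sites without pre-B Rad21, 21 lay upstream, 8 in the gene body and 17 downstream. The window also holds other genes, since 10 Rad21 sites lay at promoters of neighbours.

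A site at +320.9 kb of Tcf7 combined CTCF in B-lineage cells with Rad21 in thymocytes. Pre-B CTCF was called there (33.0%), IL7 pro-B CTCF too (22.9%), and DP Rad21 ranked above 95.1% of its list, but pre-B Rad21 was not called. Over the 3 windows, 10 of 62 pre-B CTCF peaks had DP and no pre-B Rad21, 16.1% (8.02 to 27.7) against 7.09% in the genome. The opposite, pre-B and no DP Rad21, held for 3, 4.84% (1.01 to 13.5) against 18.6%, and 13 had no Rad21 in any list, 21.0% (11.7 to 33.2) against 29.2%. The 3 Tcf7 sites called in pre-B cells and in no thymocyte list, at -206.1, +162.0 and +312.9 kb, ranked above 29.3, 9.09 and 42.1% of the pre-B Rad21 list.

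At Lef1 the promoter carried one of the strongest DP Rad21 calls of the genome. The peak chr3:130813048-130816475 was 3428 bp wide, covered all 3 annotated starts, ranked 493 of 36743 and lay above 98.7% of the list. No pre-B Rad21, DN Rad21 or CTCF peak overlapped it. A weaker DP peak adjoined it at -0.7 kb (11%). Lef1 is used in B-cell precursors as well, but the pre-B Rad21 list had no call within 1 kb of its starts.

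Upstream of Lef1, 34 DP Rad21 and 6 pre-B Rad21 peaks were called. The longest stretch without a pre-B CTCF peak ran 176 kb, from -218.8 to -42.5 kb, and 24 DP Rad21, 2 pre-B Rad21, 1 DN Rad21 and 4 IL7 pro-B CTCF peaks overlapped it. Among them were the site at -174.3 kb, ranked 575 of the DP list (98.4%) with IL7 pro-B CTCF (45.6%), and the DN and DP site at -163.2 kb (31.0 and 87.0%) without CTCF. At its inner end, the site at -42.4 kb ranked above 97.5% of the DP list. It was also called in pre-B cells, above 35.5% of the Rad21 and 4.39% of the CTCF list. The upstream flank held 28 of the 37 Lef1 sites called in thymocytes and not pre-B cells, the gene body 8 and the downstream flank 1. The 3 Lef1 sites called in pre-B cells and in no thymocyte list, at -73.4, +136.0 and +189.8 kb, ranked above 14.4, 34.4 and 17.7% of the pre-B Rad21 list.

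The Lef1 gene body held 8 sites called in thymocytes and not pre-B cells and 2 shared sites, and the downstream flank 1 and 5. The first part of the gene held DP calls only, at +7.7 kb (37.0%) and at +46.0, +47.3 and +48.9 kb (40.5, 50.6 and 74.3%). At +60.0 kb both CTCF lists had a call without Rad21. Farther in, DP sites without pre-B Rad21 lay at +97.5, +98.3 and +98.7 kb (10.8, 63.5 and 8.70%), the first of them with CTCF in both lists. Toward the end of the gene, the intron site at +104.6 kb was called in all 5 libraries, with CTCF above 92.5% (IL7 pro-B) and 95.6% (pre-B) and Rad21 above 77.4% (pre-B), 3.46% (DN) and 89.5% (DP). Beyond the gene, within Hadh, the all-library site at +127.6 kb held the highest DN rank of the window (93.2%), with 93.1% in pre-B and 97.2% in DP. All-library sites followed at +135.6 and +209.9 kb. The downstream flank had 7 pre-B Rad21 and 6 DP Rad21 peaks and 12 pre-B CTCF peaks. The far upstream edge of the window also held an all-library site, at -291.2 kb, with DP Rad21 above 98.7% of its list.

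All 3 members had DP Rad21 within 1 kb of a start, as did 33.0% of protein-coding genes. Gata3 alone of the 3 had pre-B Rad21 (20.9% of genes), DN Rad21 (4.57%), pre-B CTCF (27.1%) or IL7 pro-B CTCF (38.8%) there. Tcf7 and Lef1 had DP and no pre-B Rad21 at the promoter, as did 16.4% of genes. With lists of equal length, Gata3 kept its DP, DN and CTCF calls at the reference start and lost that of pre-B Rad21, Tcf7 lost its DP calls, and Lef1 kept the wide one across its starts and lost the weaker one beside it.

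The 20 sites called in all 5 libraries, 3 at Gata3, 11 at Tcf7 and 6 at Lef1, had CTCF in both B-lineage lists and Rad21 in all 3 cell types in which it was assayed. The CTCF motif was present in 13 of them, beside 54.6% of shared Rad21 sites and 48.3% of pre-B CTCF peaks in the genome, and 11 of these are shown (the other 2, at +135.6 and +209.9 kb of Lef1, lie in exons of Hadh and Sgms2), with the 12-base match in capitals and 20 bases on either side in lower case. The runs are written on the strand of the match, in mm9.
Gata3 site at -264.3 kb, chr2:10064487-10064538, minus strand: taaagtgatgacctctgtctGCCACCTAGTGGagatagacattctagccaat
Gata3 site at -131.8 kb, chr2:9932083-9932134, plus strand: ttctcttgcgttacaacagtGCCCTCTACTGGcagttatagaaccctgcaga
Gata3 site at -0.4 kb, chr2:9801371-9801422, plus strand: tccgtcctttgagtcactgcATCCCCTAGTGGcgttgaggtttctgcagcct
Tcf7 site at -139.0 kb, chr11:52235059-52235110, minus strand: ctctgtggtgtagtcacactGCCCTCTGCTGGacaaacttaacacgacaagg
Tcf7 site at -92.0 kb, chr11:52187991-52188042, plus strand: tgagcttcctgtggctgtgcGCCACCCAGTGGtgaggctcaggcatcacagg
Tcf7 site at -60.4 kb, chr11:52156836-52156887, plus strand: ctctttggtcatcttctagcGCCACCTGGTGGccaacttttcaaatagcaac
Tcf7 site at -15.0 kb, chr11:52111031-52111082, plus strand: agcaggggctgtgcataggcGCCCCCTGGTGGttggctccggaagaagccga
Tcf7 site at +28.5 kb, chr11:52067635-52067686, minus strand: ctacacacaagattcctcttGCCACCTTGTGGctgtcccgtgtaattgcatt
Tcf7 site at +62.1 kb, chr11:52034363-52034414, plus strand: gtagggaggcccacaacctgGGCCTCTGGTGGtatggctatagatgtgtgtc
Lef1 site at -222.1 kb, chr3:130591019-130591070, plus strand: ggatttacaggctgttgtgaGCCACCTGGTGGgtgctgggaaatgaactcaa
Lef1 site at +104.6 kb, chr3:130917974-130918025, plus strand: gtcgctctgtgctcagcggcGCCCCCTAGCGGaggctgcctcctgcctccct
In the usual convention the motif as printed points against its own reading direction, so a match on the plus strand points to lower coordinates. Matches were sought across the whole merged site, CTCF peaks included. At +62.1 kb of Tcf7 the match lay beyond the Rad21 peaks, and at +135.6 kb of Lef1 beyond those of DN and DP cells. Of the 13 matches, 7 pointed toward the start of their gene and 6 away. At Gata3 the matches at the promoter and at -131.8 kb pointed toward the gene and the one at -264.3 kb away. At Tcf7 those at -92.0, -60.4, -15.0 and +28.5 kb pointed toward the start. At Lef1 only the one at +104.6 kb did. A 20-base matrix built from pre-B CTCF peaks on other chromosomes passed 14 of the 20 sites, and 61.5% of all pre-B CTCF peaks in the genome. Its best position lay on the same strand at 12 of the 13, and 10 of these also passed its threshold, which the Gata3 promoter and the Tcf7 site at +62.1 kb did not. At +62.1 kb of Tcf7 and +135.6 kb of Lef1 its best position was elsewhere in the site, and at the latter it was on the other strand, so the direction there depends on the motif model. In sequence of the same length 2000 bp away from the pre-B CTCF peaks, 19.4% held a match in the windows and 8.96% in the genome, so a match with 2 mismatches does not by itself mark a bound site.

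The CTCF lists of the 2 B-lineage stages overlapped in shares whose intervals hold the genome-wide values. Of 62 pre-B CTCF peaks, 61 had an IL7 pro-B CTCF peak, 98.4% (91.3 to 100) against 96.0% in the genome. Of 104 IL7 pro-B CTCF peaks, 62 had a pre-B peak, 59.6% (49.5 to 69.1) against 58.6%. The IL7 pro-B peaks with a pre-B partner had a median rank above 69.7% of their list and those without one above 31.3%, against 70.5 and 23.8% in the genome. Pre-B Rad21 lay at 39 of the 62 pre-B CTCF peaks, 62.9% (49.7 to 74.8) against 63.5%. DP Rad21 lay at 46 of them, 74.2% (61.5 to 84.5) against 52.0%, and DN Rad21 at 19, 30.6% (19.6 to 43.7) against 22.0%. The motif was found in 32 of the 62, 51.6% (38.6 to 64.5) against 48.3%.

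The factor words were counted in the central 300 bases of all merged Rad21 sites. The Runx word was in 35 of the 104 thymocyte sites without pre-B Rad21, 33.7%, against 25.4% of that class and 22.9% of shared sites in the genome. It was in 6 of the 37 shared sites of the windows, 16.2%. The TCF/LEF word was in 20.2% (18.0 and 17.8%), the GATA word in 10.6% (10.4 and 11.7%) and the Ets word in 8.65% (10.7 and 7.20%). In the shared sites of the windows these 3 words were in 13.5, 5.41 and 8.11%. No difference between these shares was tested.

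Windows of related genes were described in the same way, from lists chosen with results of these data known, and 38 of the 39 listed names were found in the annotation. Of 17 genes of the T-lineage programme, 16 had DP Rad21 at the promoter and 10 had it without pre-B Rad21, beside 33.0% and 16.4% of all genes. The list is not confined to genes used by T cells alone. Rag1, which both lineages need to rearrange their receptor genes and which these mice lack, was among the 10. Pre-B Rad21 was called at the promoters of 6 of the 17. Their windows held a median of 21 sites called in thymocytes and not pre-B cells (range 8 to 50), where the median over all genes is 5. Bcl11b, a factor needed for T-cell commitment, had 50, Ets1 had 46, and Satb1, a chromatin organiser of thymocytes, had 38. Ets1 and Satb1 also had pre-B Rad21 at the promoter. Of 9 B-lineage genes, 3 had DP Rad21 at the promoter and none had it without pre-B Rad21. Their windows had a median of 9 (0 to 19), and Pax5, the B-cell commitment factor, had 0 such sites and 24 called in pre-B cells and not thymocytes. The other 5 GATA genes had a median of 5 (0 to 11) with no DP Rad21 at a promoter. The 7 genes of TCF/LEF relatives and Wnt partners had a median of 7 (0 to 23), and 6 of them had DP Rad21 at the promoter, 2 without pre-B Rad21. None of the other GATA and TCF/LEF genes reached the count of Lef1, and 3 of the 17 T-lineage genes did. The lower count of Gata3, 21, was reached by 1 gene of the TCF/LEF list (Tle3 with 23) and by 9 of the 17.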

How the data were processed

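Peak positions and a score for each peak were used as the authors deposited them, with no other measurement. According to their methods, adapters and duplicate reads were discarded by the authors, who aligned to mm9 with Bowtie (0.12.9 in the submitters' processing notes, while the methods name another version), kept reads mapping to up to 3 places, and called peaks with MACS (1.4.2) against an input. A common input served both pre-B libraries. Read depth is not given in the deposited lists, so floors for undetected sites are unknown, and list lengths were not adjusted for depth.

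Peaks were joined to GENCODE vM1 genes and NCBIM37 (mm9) sequence with Python 3.11.15, numpy 2.4.6 and pysam 0.24.0. Peaks of 1 bp or more overlap were merged. The joining and counting steps were tested on simulated data. The members and the gene lists were chosen with earlier results of these data known. Sites were named if they lay in or within 1 kb of a start of the gene, were called in all 5 libraries, were among the 3 highest ranks of a library in the window, were among the 3 highest-ranked thymocyte or pre-B sites without the other, or were nearest beyond a gene end. This gave 66 of 187 merged sites. A few others are named by their place in a stretch. The stretches, the words searched and some sites were picked after the values were seen. Those sites are at +196.8, +290.8 and +313.8 kb of Gata3, at -17.3, -36.2 and -58.5 kb of Tcf7 and at -42.4 kb of Lef1. Motif matches allowed 2 mismatches on either strand. Alternatives were a score of at least 100, lists of equal length, midpoint placement, 320 kb flanks, 50% overlap, 1 or 3 mismatches, a 20-base matrix, and joining sites within 1 kb.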

Additional observations from a re-analysis of the deposited data

How the results depend on the processing

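No paired analysis was possible because there was 1 library per group and the labels give no replicate numbers. Of the 28 summary values, 8 moved with a score of at least 100, and 18 of the 27 run with lists of equal length moved, where fewer peaks are kept by construction; a few moved in other settings. With lists of equal length the order of the classes reversed at Tcf7, from 46 thymocyte sites without pre-B Rad21 and 20 shared sites to 8 and 9.

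With a score of at least 100, DP Rad21 peaks numbered 15 at Gata3, 44 at Tcf7 and 31 at Lef1. Sites called in thymocytes and not pre-B cells numbered 12, 29 and 22, and Gata3 had 3 shared sites and 1 pre-B site. With lists of equal length, IL7 pro-B CTCF peaks numbered 9 at Gata3 and 32 at Tcf7. Pre-B Rad21 peaks numbered 3, 11 and 7 and DP Rad21 peaks 9, 16 and 15 at Gata3, Tcf7 and Lef1. Thymocyte sites without pre-B Rad21 were 8 at each gene, shared sites 2, 9 and 7, and pre-B sites 1 at Gata3 and 0 at Lef1. The share of pre-B CTCF peaks with pre-B Rad21 was then 33.9% and that with IL7 pro-B CTCF 87.1%. Tcf7 had 6 pre-B sites with edges 20 kb wider and 25 thymocyte sites with sites within 1 kb joined, the setting added after the data were seen. The motif share of pre-B CTCF peaks was 14.5% with 1 mismatch, 100% with 3 and 67.7% with the 20-base matrix, which 61.5% of all pre-B CTCF peaks in the genome passed. Of the 66 named sites, 11 changed the number of libraries calling them by over 1.5 times at a score of at least 100 and 28 with lists of equal length. The Lef1 promoter and the DP calls at +50.8 and +284.5 kb of Gata3 and -31.9 kb of Tcf7 were kept in both settings, whereas the DP calls across the Tcf7 starts and the pre-B Rad21 call at the Gata3 start were lost with lists of equal length.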
